A study of Rattus norvegicus with 12 samples.

Results

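The genes of activin, inhibin and follistatin signalling were followed in cultured rat gonadotropes given gonadotropin-releasing hormone (GnRH) or vehicle. The group was chosen by gene symbol: every probe set of the array whose single symbol in the platform annotation was Inha, Inhba, Inhbb, Fst, Fstl3, Acvr1b, Acvr2a, Acvr2b, Smad2 or Smad3. Of these 10 genes, 9 had a probe set, out of 14217 genes with 1 symbol on the array, and they had 13 probe sets between them. Inhba, Fst, Fstl3 and Smad3 each had more than 1. Acvr1b, a type I activin receptor, carried no probe set in that annotation and was not analysed here.

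Activins are dimers of the beta subunits encoded by Inhba and Inhbb, and inhibins pair a beta subunit with the alpha subunit encoded by Inha. Activin binds a type II receptor (ACVR2A or ACVR2B), which recruits and phosphorylates a type I receptor, and the type I receptor phosphorylates SMAD2 and SMAD3. In the pituitary, activin B made by the gonadotropes themselves drives transcription of Fshb, the beta subunit of follicle-stimulating hormone (FSH). Follistatin, encoded by Fst, binds activin and neutralises it, and the related protein FSTL3 does the same. Inhibin, which reaches the pituitary largely from the ovary, occupies the type II receptor together with its co-receptor betaglycan and so opposes activin.

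Anterior pituitaries of adult female rats (Sprague-Dawley) that had been ovariectomized for 2 weeks were pooled, 13 to 15 per experiment, so each experiment mixed the cells of several animals. Large cells, about 6% of those recovered from a sedimentation gradient, were kept, and 40 to 60% of them stained for luteinizing hormone (LH), so other pituitary cells made up the rest. Every well held 0.2 nM estradiol and 10% charcoal-treated serum. On culture day 3, control wells received vehicle medium and the others 10 nM GnRH, and the cells were lysed 40 min later. The 12 arrays form 3 enrichment sets, each with 2 vehicle arrays (vehicle 1 and 2 in set I, 3 and 4 in set II, 5 and 6 in set III) and 2 GnRH arrays numbered likewise. The titles call the arrays biological replicates, but no label says that the wells of a set held cells of separate animals, so p-values measure the spread between these samples, which may in part be technical. In such bulk RNA, fewer cells of a type and less RNA per cell cannot be told apart.

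The arrays differed in background, and this bears on every value below. Signals are linear intensities rescaled to a trimmed mean of 500 per array. Background was read from 27 probe sets for Bacillus subtilis genes on the same array, by their median and their 90th percentile. This takes it that no RNA of these genes had been added to the samples, which was not checked here. On the 5 arrays with the weakest hybridisation spike-in controls (all of set I, and vehicle 5), that 90th percentile lay between 54.4 and 94.3. On the other 7 it lay between 219 and 575. Signals of the tested member probe sets exceeded the 90th percentile of their own array in 55 of 55 cases on the former and in 52 of 77 on the latter, where 10 lay below the median of the controls. Between the agents, the spike-in controls differed by 0.96 on the log2 scale, the GnRH arrays being the brighter (exact two-sided permutation test within sets, p = 0.5; the smallest p it can give is 0.00926). Vehicle 3 stood apart: its median rank correlation (Spearman) with the remaining arrays was 0.376, whereas the other 11 reached 0.623 to 0.715.

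**Figure D1:**
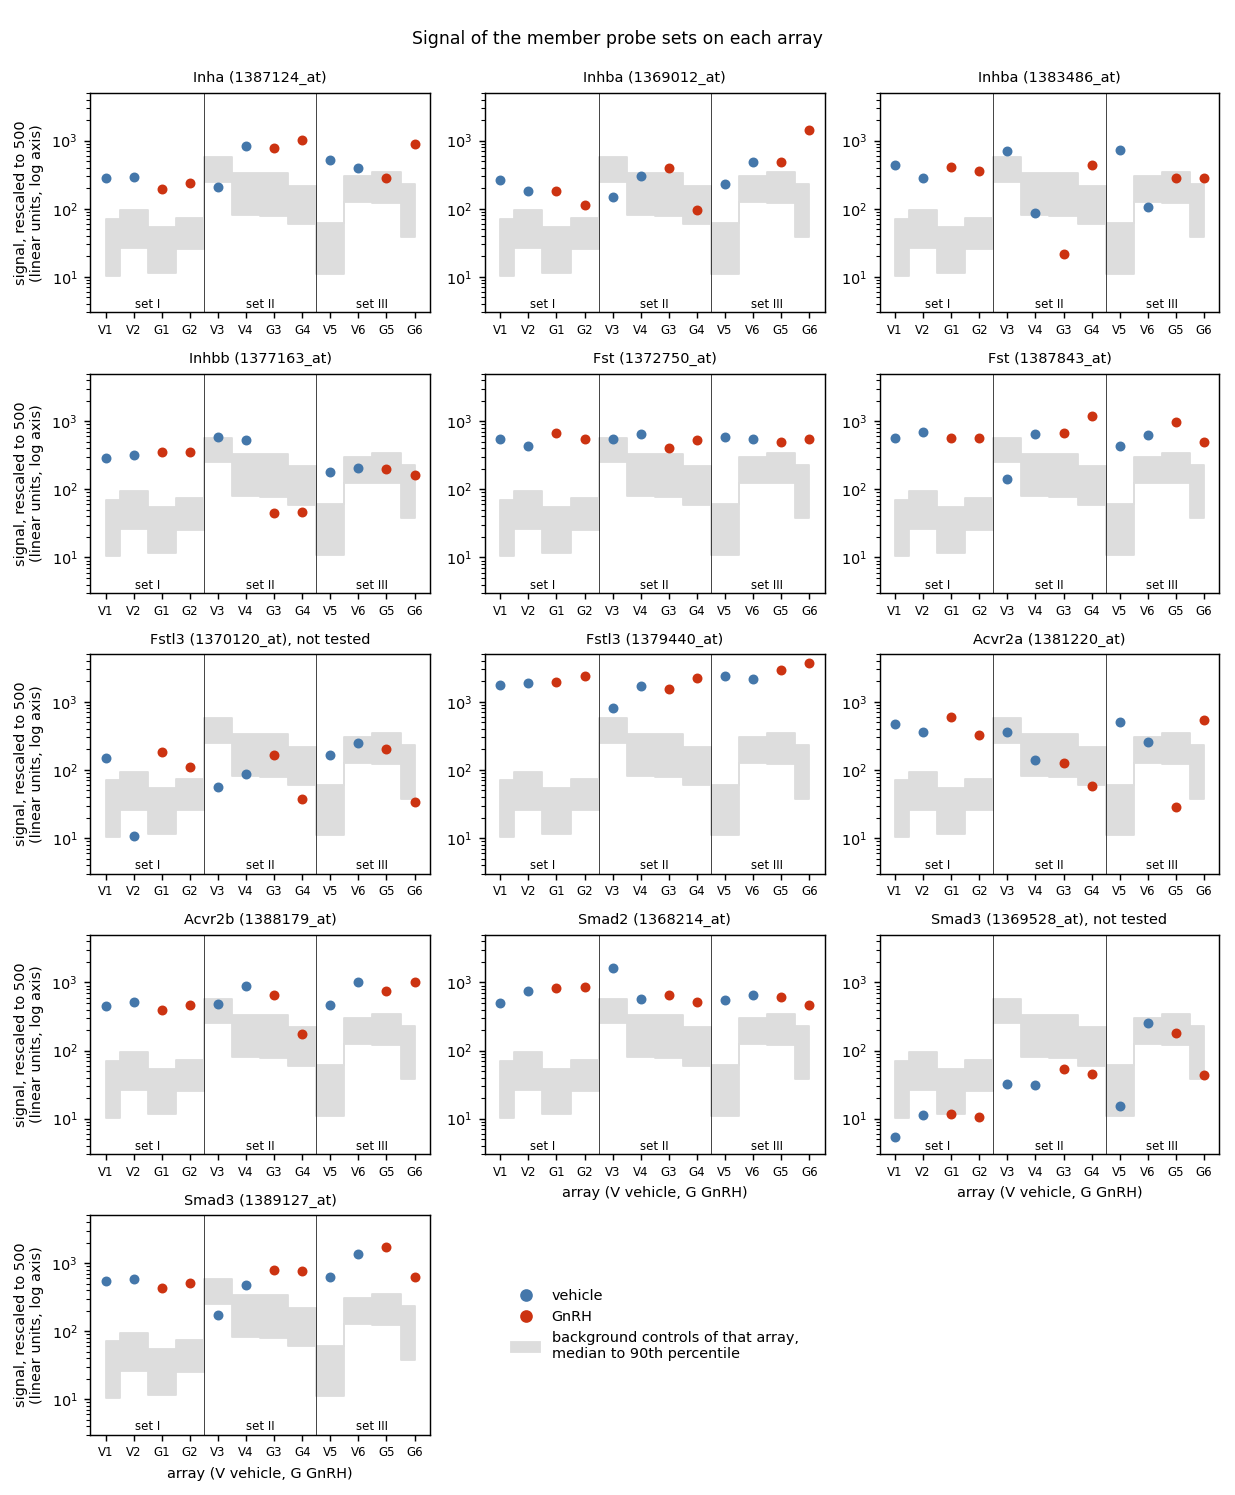
Signal of the 13 member probe sets on each of the 12 arrays, in linear units on a log axis, with arrays grouped by enrichment set (V, vehicle; G, GnRH). Grey marks the median to the 90th percentile of the 27 background controls on the same array. In set I the Inhbb points, from 292 to 358, lie well clear of the grey; in set II GnRH 3 and 4, at 45.7 and 46.8, lie below it.

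GnRH and vehicle were compared on log2(signal + 16) in a linear model with the enrichment set as a block, and folds are on that scale, which understates the change of dim genes. Of the 13 probe sets, 11 passed the filter on low values and represented all 9 genes. With Benjamini-Hochberg adjustment over 18625 probe sets, limma called 0 of the 11 as higher and 0 as lower (smallest adjusted p = 0.981). At an unadjusted p under 0.05 the count was also 0, against 3.45% of all tested probe sets. The background of adjusted calls was 0.00537%, a single probe set, that of Fosb. Of the 11, 5 were higher and 6 lower in GnRH arrays, with a median log2 difference of -0.06, and the median over all tested probe sets was 0.04. The values that follow are therefore levels and intervals, none of which passed the test.

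**Figure D2:**
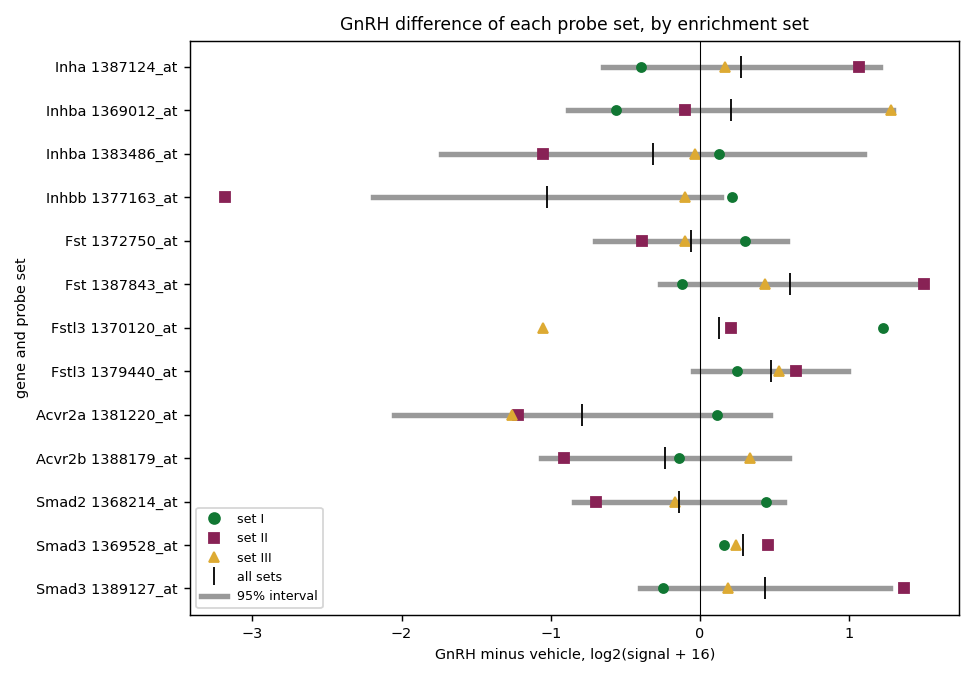
Difference between GnRH and vehicle arrays on the log2(signal + 16) scale for each of the 13 probe sets. Coloured points are the mean differences within set I, II and III (2 arrays per agent each), the black tick is the mean over all 6 arrays per agent, and the grey bar is limma's 95% interval for the 11 tested. Each bar crosses 0, and Inhbb in set II, at -3.18, lies farthest from it.

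Inhbb, which encodes the beta subunit of activin B, had the largest mean difference of the group. Its signal ran from 178 to 578 in vehicle arrays (median 304) and from 45.7 to 358 in GnRH arrays (median 179). Its difference in log2 signal was -1.02 ± 0.55 (SE, 6 arrays per agent; adjusted p = 0.981, limma), a fold of 0.492 with a 95% interval from 0.219 to 1.10. The agents overlapped, and GnRH exceeded vehicle in 9 of 36 pairs. With limma's array weights the Inhbb difference was -0.26. By the study's criterion, turned to its mirror (a fold of 1.50 lower, in at least 50% of pairs), Inhbb was the 1 probe set of the 11 that qualified, with 58.3% of pairs, against 7.6% of all tested probe sets. None of the 11 met the criterion as higher, against 7.62%.

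The Inhbb difference lay mainly in set II. There the signal was 578 and 523 in vehicle 3 and 4 and 45.7 and 46.8 in GnRH 3 and 4, a log2 difference of -3.18. Both GnRH signals lay below the median of the background controls on their arrays, 78.3 and 59.6, while vehicle 3 barely exceeded its 90th percentile of 575, so the size of that fold is uncertain. In set I the order was the opposite. Inhbb gave 292 and 316 in vehicle 1 and 2 and 352 and 358 in GnRH 1 and 2, a difference of 0.21, with all 4 signals above background. In set III the 4 signals lay between 161 and 207, a difference of -0.10, and 3 of them were below the 90th percentile of their background controls. Limma's F test of whether the response differed between sets gave Inhbb an unadjusted p of 0.0078 and an adjusted p of 0.834. Inhbb was the 1 probe set of the 11 under 0.05 unadjusted, against 5.36% of all tested, and after adjustment 0 of 18625 passed. In set II, where Inhbb differed most, the mean log2 level of thyrotrope markers differed by -0.89 and that of folliculostellate and stem cell markers by 0.81. Markers within a list disagreed. Of the thyrotrope genes, Trhr (-2.10) and Dio2 (-1.47) were lower in GnRH arrays and Tshb (0.90) was higher. Folliculostellate and stem cell genes ran from -1.70 (Aldh1a2) to 2.62 (Gfap), and gonadotrope genes from -2.45 (Nr5a1) to 1.24 (Scg2). Corticotrope and melanotrope genes ran from -2.35 (Pomc) to 1.12 (Pcsk2). The other lists differed by -0.34 (corticotropes and melanotropes), -0.33 (endothelium), -0.30 (fibroblasts and pericytes), -0.20 (somatotropes and lactotropes), -0.18 (leukocytes) and -0.06 (gonadotropes). Their part in the result was not tested.

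The 300 bases around the annotated start of Inhbb and of Inha are shown because these were the members whose windows held one of the motifs searched for early GnRH-responsive factors. Windows were taken from RefSeq annotation of GRCr8, from 250 bases before to 50 bases after the start site, and were at hand for 9 of the 10 genes; that of Fst was not analysed here. Capitals mark GCGNGGGCG, a motif for EGR factors, in Inhbb, and TGCGTCA, a variant of the cyclic AMP response element, in Inha. The first lies at chr13:33089324-33089623 on the minus strand and the second at chr9:84442859-84443158 on the plus strand.
Inhbb: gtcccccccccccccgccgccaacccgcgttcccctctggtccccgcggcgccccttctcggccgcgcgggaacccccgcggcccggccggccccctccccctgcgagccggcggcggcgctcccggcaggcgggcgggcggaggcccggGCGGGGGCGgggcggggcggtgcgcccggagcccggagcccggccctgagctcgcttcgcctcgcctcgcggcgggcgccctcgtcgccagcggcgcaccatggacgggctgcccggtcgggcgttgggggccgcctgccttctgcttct
Inha: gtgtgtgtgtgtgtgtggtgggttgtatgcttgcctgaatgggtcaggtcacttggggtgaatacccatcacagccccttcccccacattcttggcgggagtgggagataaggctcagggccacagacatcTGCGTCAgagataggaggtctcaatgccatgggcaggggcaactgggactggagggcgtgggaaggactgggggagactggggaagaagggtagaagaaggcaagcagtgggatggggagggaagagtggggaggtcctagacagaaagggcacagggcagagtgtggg

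The Inhbb match starts 100 bases before the annotated start and the Inha match 119 bases before its own. In the Inhbb window the bases after the annotated start begin with ATG. That start may therefore be the start of the coding sequence, and the 100 bases are not a distance from a checked transcription start. Searched on both strands, GCGNGGGCG was present in 4.98% of 33469 windows and TGCGTCA in 1.9%. The full element TGACGTCA (1.83% of windows), the AP-1 motif TGANTCA (7.33%) and the SMAD palindrome GTCTAGAC (0.197%) were in none of the members' windows. The Inhbb window is 84.3% G and C, and the Inha window 59%. A match describes the letters of a window and is no evidence of binding.

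Inha, the inhibin alpha subunit, was detected on most arrays, with 10 of 12 signals above the 90th percentile of background. It ran from 206 to 838 in vehicle arrays (median 344) and from 196 to 1011 in GnRH arrays (median 534). The agents overlapped almost completely, with GnRH higher in 19 of 36 pairs, and the difference was 0.28 ± 0.44 on the log2 scale (SE; adjusted p = 0.984, limma). In set I both GnRH signals, 196 and 240, lay below both vehicle signals, 283 and 298. In set II vehicle 3 was low, at 206, under its background median of 250, while vehicle 4, GnRH 3 and GnRH 4 gave 838, 788 and 1011. Without vehicle 3 the overall difference turned to -0.06.

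Inhba, the beta subunit of activin A, had a pair of probe sets that did not show the same order of arrays. Probe set 1369012_at ran from 146 to 482 in vehicle (median 248) and from 95.9 to 1428 in GnRH arrays (median 288), a log2 difference of 0.21 ± 0.52 (SE). Its highest signal, 1428, was in GnRH 6, and the difference within set III was 1.28. Without GnRH 6 the overall difference was -0.12, and without vehicle 5 it was -0.05. Probe set 1383486_at ran from 86.8 to 741 in vehicle (median 358) and from 21.6 to 442 in GnRH arrays (median 323), a difference of -0.32 ± 0.67. GnRH 3 gave the lowest signal, 21.6, below its background median of 78.3, and without it the difference was 0.22. Without vehicle 3 it was 0.13. The 2 probe sets had the same sign in 1 of the 3 sets (limma adjusted p = 0.993 for each).

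Follistatin was steady by one probe set and not by the other. Fst probe set 1372750_at stayed between 436 and 654 in vehicle arrays (median 551) and between 400 and 664 in GnRH arrays (median 533). Its SD over the vehicle arrays, 0.19 on the log2 scale, was the lowest among the tested members, whose SDs reached 1.25. GnRH and vehicle differed by -0.06 ± 0.30 (log2, SE; adjusted p = 0.999, limma), and the 95% interval of the fold ran from 0.613 to 1.50. Set I gave 0.30, set II -0.39 and set III -0.10, and without GnRH 3 the overall value was 0.02.

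Fst probe set 1387843_at ran from 141 to 688 in vehicle arrays (median 589) and from 504 to 1200 in GnRH arrays (median 620). The low value was vehicle 3, below its background median of 250; the other vehicle arrays gave 433 to 688. The difference, 0.61 ± 0.41 (log2, SE; adjusted p = 0.981, limma), was made up of -0.12 (set I), 1.50 (set II) and 0.43 (set III), and it was 0.23 without vehicle 3 and 0.080 with array weights. The Fst probe sets thus had opposite signs in each of the 3 sets. Over the 4 genes with several probe sets, the signs matched in 5 of 12 gene and set combinations. These were 0 of 3 for Fst, 1 of 3 for Inhba and 2 of 3 each for Fstl3 and Smad3. For Fstl3 and Smad3, 1 probe set of the pair did not pass the filter. The share over all genes with several probe sets was not computed.

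Fstl3, which encodes a secreted activin-binding protein related to follistatin, was the one member higher in GnRH arrays in every set among the tested probe sets. Probe set 1379440_at was above background on all 12 arrays. It ran from 813 to 2413 in vehicle (median 1821) and from 1538 to 3662 in GnRH arrays (median 2319). In set I the signals were 1781 and 1862 against 1956 and 2404, in set II 813 and 1709 against 1538 and 2233, and in set III 2413 and 2137 against 2953 and 3662. GnRH arrays lay above both vehicle arrays in sets I and III and overlapped them in set II. Across sets the arrays differed by 0.48 ± 0.25 (log2, SE; adjusted p = 0.981, limma), a fold of 1.39 with a 95% interval from 0.970 to 1.99, and 27 of 36 pairs were higher. One sign in all 3 sets was seen in 1 of the 11 tested member probe sets and in 23.9% of all tested. Without vehicle 3 the Fstl3 difference was 0.32.

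The other Fstl3 probe set, 1370120_at, did not pass the filter. It ran from 10.7 to 247 in vehicle and from 34.0 to 206 in GnRH arrays, and 4 of its 12 signals exceeded the 90th percentile of background. Fitted without the filter it gave 0.13 ± 0.66 (log2, SE; limma adjusted p = 1.00).

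The type II receptor genes differed in how well they were measured. Acvr2a signals ran from 138 to 501 in vehicle (median 360) and from 28.3 to 600 in GnRH arrays (median 229). On the 5 arrays with low background all 5 Acvr2a signals were above it, between 330 and 600, whereas 1 of 7 was on the others. The low GnRH values, 58.2 in GnRH 4 and 28.3 in GnRH 5, lay below the medians of their background controls, 59.6 and 122. The difference of -0.79 ± 0.60 (log2, SE; adjusted p = 0.981, limma) is therefore of uncertain size. Within the sets it was 0.11 (I), -1.22 (II) and -1.26 (III). It was -0.28 without GnRH 5, -1.19 without GnRH 6 and -0.19 with array weights.

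Acvr2b signals ran from 444 to 1022 in vehicle (median 497) and from 177 to 1012 in GnRH arrays (median 563). The agents overlapped, with GnRH higher in 15 of 36 pairs. Acvr2b differed by -0.24 ± 0.39 (log2, SE; limma adjusted p = 0.987), with -0.14, -0.91 and 0.34 in the 3 sets. GnRH 4 was the low array, at 177, and without it the difference was 0.07. On the 5 arrays with low background Acvr2b varied little, with an SD of 0.13 on the log2 scale, against 0.86 on the other 7.

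Smad2 and Smad3 encode the receptor-activated transcription factors that carry the activin signal to the nucleus. Smad2 was above background on all 12 arrays and ran from 505 to 1605 in vehicle (median 615) and from 470 to 858 in GnRH arrays (median 639). The vehicle 3 value of 1605 stood above the others, which ended at 761. Smad2 differed by -0.14 ± 0.33 (log2, SE; limma adjusted p = 0.993), a fold interval from 0.556 to 1.48, and without vehicle 3 it was 0.11. In set I both GnRH signals, 838 and 858, exceeded both vehicle signals, 505 and 761, and in set II the mean difference was -0.70.

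Smad3 probe set 1389127_at ran from 175 to 1339 in vehicle (median 561) and from 437 to 1733 in GnRH arrays (median 689). The lowest signal was again that of vehicle 3, below its background median. The log2 difference was 0.44 ± 0.40 (SE; limma adjusted p = 0.981), with -0.25, 1.37 and 0.19 in the 3 sets, and it was 0.15 without vehicle 3. Smad3 probe set 1369528_at did not exceed the 90th percentile of background on any of the 12 arrays and did not pass the filter; its signals ran from 5.42 to 255.

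In set I, where all tested member signals lay above background, none of the members was called between agents. Their log2 differences in that set alone ran from -0.56 (Inhba 1369012_at) to 0.44 (Smad2), with a median SE of 0.28. The count at an unadjusted limma p under 0.05 was 0 of 11 (smallest adjusted p = 0.999), against 668 of 18625 probe sets. With 2 arrays per agent, differences of this size are neither shown nor excluded. In set II alone 8 of the 11 passed the filter, which Inhbb, Acvr2a and Inhba 1383486_at did not, and the median SE was 0.87. In set III alone it was 0.68. In neither set was a member under 0.05 unadjusted, against 799 (set II) and 539 (set III) of 18625 probe sets. Both GnRH arrays lay above both vehicle arrays in one set and below both in another for 3 of the 11, Inhbb, Fst 1372750_at and Smad3 1389127_at, against 13.3% of all tested probe sets.

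Between the enrichment sets, irrespective of agent, 0 of 11 member probe sets differed by limma's F test (smallest adjusted p = 0.144), against 6.02% of all tested probe sets. At an unadjusted threshold of 0.05 there was 1 of 11, Fstl3 1379440_at (limma F test, unadjusted p = 0.0321). The share of all tested probe sets at that threshold was not computed, and it cannot be under the 6.02% called after adjustment. The mean log2 level of this Fstl3 probe set was 10.97 (set I), 10.55 (set II) and 11.42 (set III). Fst 1372750_at had nearly the same mean level in each set, 9.13, 9.08 and 9.12. With limma's array weights, which gave GnRH 1 and 2 the most weight and vehicle 3 the least, 1 member was called between sets, Inha (limma F test, adjusted p = 0.0141). The share of all probe sets called between sets with these weights was not computed, so the call is not read as a trait of Inha. Mean levels of Inha were 8.06 (set I), 9.30 (set II) and 8.94 (set III).

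**Figure D3:**
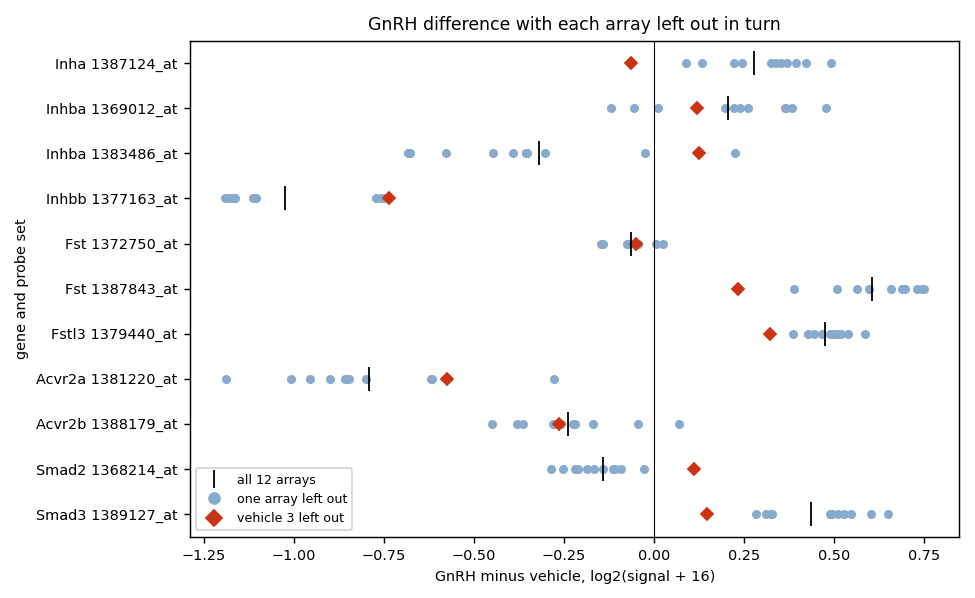
Difference between GnRH and vehicle arrays on the log2(signal + 16) scale for the 11 tested probe sets, with all 12 arrays (black tick) and with 1 array left out in turn (points; the red diamond leaves out vehicle 3). Without vehicle 3, Inha, Inhba 1383486_at and Smad2 cross 0, while Inhbb lies between -1.19 and -0.74 and Fstl3 between 0.32 and 0.59 over the 12 omissions.

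Fshb, the target of this local control, had a pair of probe sets that differed in size of difference and in brightness. Probe set 1388094_at ran from 393 to 796 in vehicle arrays (median 577) and from 413 to 1062 in GnRH arrays (median 585). It was above background on all 12, and differed by 0.13 ± 0.29 (log2, SE; adjusted p = 0.993, limma). Fshb probe set 1388289_s_at did not pass the filter, with signals from 18.3 to 142 in vehicle and from 44.7 to 329 in GnRH arrays, 7 of 12 above the 90th percentile of background. Its difference was 0.93, with 29 of 36 pairs higher, and was -0.04, 1.30 and 1.54 by set. Lhb, the LH beta subunit, differed by 0.74 ± 0.55 (adjusted p = 0.981), with overlapping ranges of 12563 to 152897 and 21368 to 152379. The GnRH receptor gene Gnrhr differed by 0.75 ± 0.53 and 0.18 ± 0.53 in its probe sets, each above the 90th percentile of background on 6 of 12 arrays.

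Other genes of activin, BMP and TGF-beta signalling were taken from a list of 51, of which 45 had a probe set and 32 were tested, each by its brightest probe set. Limma called 0 of the 32, in either direction, and 0 were under 0.05 unadjusted. Of them 19 were higher and 13 lower in GnRH arrays, with a median log2 difference of 0.08 beside 0.04 for all 10680 genes tested. Tgfbr3, which encodes betaglycan, differed by 0.03, Smad4, the shared partner of the receptor-activated SMADs, by 0.08, and the inhibitory Smad7 by 0.33. Furin, a convertase that processes TGF-beta family precursors, differed by 0.04.

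The 6 list members with the smallest p were all higher in GnRH arrays without passing (limma adjusted p = 0.981 for each). Fstl1, a follistatin-like glycoprotein gene, ran from 2860 to 14720 in vehicle (median 4007) and from 4174 to 20855 in GnRH arrays (median 6990). Its log2 difference was 0.73 ± 0.35 (SE), positive in each set, while its other probe sets gave -0.17 and 0.13. Igsf1, an immunoglobulin superfamily gene of pituitary cells, ran from 1298 to 4428 in vehicle (median 4304) and from 4343 to 6749 in GnRH arrays (median 4721). It differed by 0.50 ± 0.28 with 33 of 36 pairs higher. Its other probe set gave 0.86, made up of 0.45, 2.08 and 0.06 by set, with a vehicle low of 61.1 beside a median of 2983.

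Bmp6, a BMP ligand gene, differed by 0.59 ± 0.40, with 0.26, 1.43 and 0.09 by set and a vehicle low of 173 beside a median of 1158. Its other tested probe set gave -0.66, and those that did not pass the filter gave 0.33 and 0.02. Zfyve9, which encodes the SMAD anchor SARA, differed by 1.38 ± 0.75, with -1.47 in set I and 2.62 and 2.99 in sets II and III. The other Zfyve9 probe set, which did not pass the filter, gave -1.09 and was lower in all 3 sets. Gdf11, a ligand of the activin type II receptors, differed by 1.06 ± 0.60, with -0.37 in set I and a vehicle low of 40.1 beside a median of 524. Its other probe set, which did not pass the filter, gave 0.58. Amhr2, the anti-Müllerian hormone receptor gene, differed by 0.95 ± 0.53. Zfyve9 and Amhr2 exceeded the 90th percentile of background on 8 of 12 arrays.

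**Figure D4:**
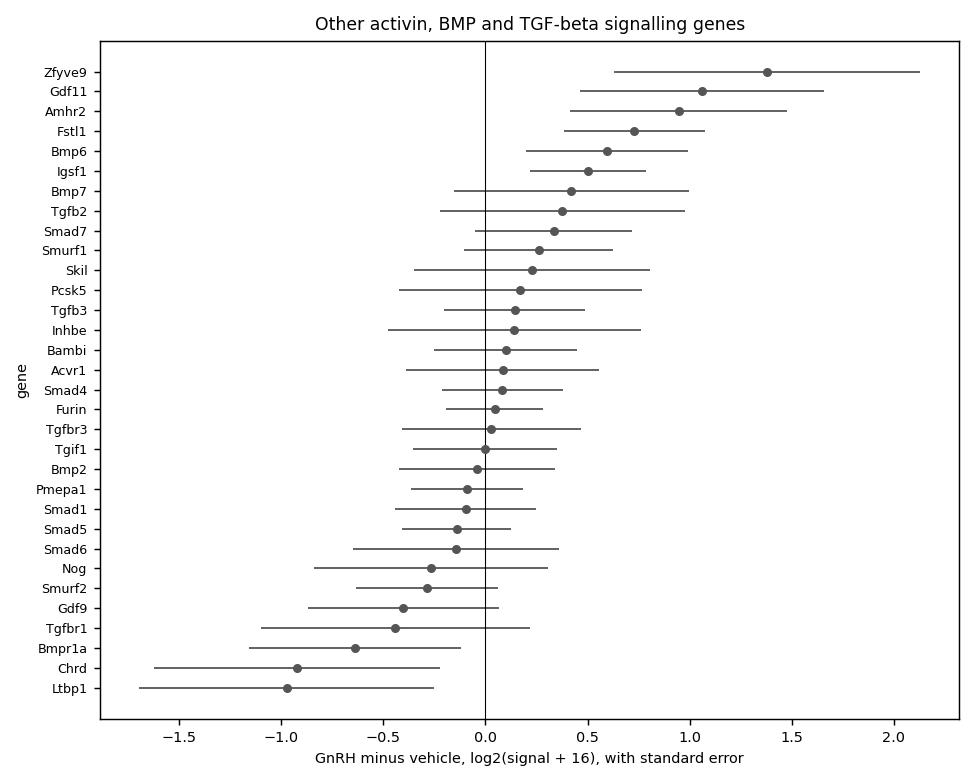
Difference between GnRH and vehicle arrays on the log2(signal + 16) scale for the 32 tested genes of the wider signalling list, with limma's standard error. The values run from -0.97 for Ltbp1 to 1.38 for Zfyve9, and none passed the test.

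The genes whose pattern was most like that of 3 members were named by Pearson correlation over the 12 arrays, after the mean of each set had been removed, among 10679 genes. For Fst (1387843_at) they were Sec63, Eif4e2 and Cog7, with r of 0.98, 0.97 and 0.97. For Inhbb they were Dnai7, Zbed4 and Gtdc1, each with r of 0.96. For Inha they were Shank2, Cbl and Shroom3, with r of 0.97, 0.96 and 0.95. The points share scaling, background and the arrays that stand apart, and the highest of so many correlations is a description of these 12 arrays.

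The marker lists placed the members in cultures of mixed cell type. Gonadotrope markers had 7 of 7 genes tested, 5 of them above the 90th percentile of background on all 12 arrays. Their mean log2 level ran from 11.07 to 12.08 in vehicle and from 11.39 to 12.08 in GnRH arrays (difference 0.12; exact two-sided within-set permutation p = 0.602, n = 6 per group). Folliculostellate and stem cell markers, from cells known to make follistatin, had 7 of 8 listed genes tested. They ran from 7.32 to 9.60 and from 8.21 to 9.29 (difference 0.07; exact permutation p = 0.972). Over the other lists with tested genes, the differences ran from -0.40 for thyrotropes to 0.30 for somatotropes and lactotropes, with exact permutation p from 0.25 to 0.528. These means can hide single genes. Pomc differed by -1.77 ± 0.50 (log2, SE, limma unadjusted p = 0.0028, adjusted p = 0.981) and was lower in each set. It was above the 90th percentile of background on 6 of 12 arrays. Tbx19 and Pcsk2 of the same list were higher, by 0.64 and 0.56. Of the 3 erythrocyte markers 0 were tested, and Ptprc and Pecam1, defining markers of leukocytes and endothelium, did not pass the filter.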

How the data were processed

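Expression was measured on 12 Affymetrix rat arrays of the 230 type, 1 per sample. RNA was amplified in 2 rounds with T7 polymerase, per the labels' protocols, which shortens products toward the 3' end and can set probe sets of a gene apart. The deposited values are probe set intensities on a linear scale made with GCOS, per the submitters' processing notes. The sources used here give neither the GCOS version nor its settings. Deposited trimmed means were 497 to 499, so the authors had scaled the arrays; 0 other per-sample columns were present. Signals were then scaled so that every array had a 2% trimmed mean of 500, and log2(signal + 16) was tested in limma 3.58.1 (R 4.3.3) with set and agent as terms, an intensity trend and Benjamini-Hochberg adjustment (threshold 0.05). Probe sets with a mean at or above the 40th percentile of 31042 were tested. Scripts were tested on simulated data with less spread than most members showed, which checks the code and not the power to find a change here. All 13 member probe sets matched a RefSeq gene by Entrez identifier.

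Groups and replicate numbers came from sample titles. Named genes are all members, Fshb, Lhb and Gnrhr, the 6 pathway genes with the smallest p and the 3 genes most like Fst, Inhbb and Inha. Fosb, Arc, Tgfbr3, Smad4, Smad7, Furin, Ltbp1, Ptprc and Pecam1 were named after their values were seen. So were Trhr, Dio2, Tshb, Aldh1a2, Gfap, Nr5a1, Scg2, Pomc, Tbx19 and Pcsk2 of the marker lists. Members and lists were chosen with earlier results of these data known. The number of arrays limits the precision.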

Additional observations from a re-analysis of the deposited data

Results flagged for a closer look

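Among 26 groups of 6 signals (13 probe sets, 2 agents), 5 held a sample far from the others. The nominal rate of the rule is about 1 in 20, but the share over all probe sets of these arrays was not computed. The 5 are therefore not read as an excess particular to these genes. The gap to the next sample as a share of the group's range was 0.83 for Inhba 1383486_at in GnRH 3 (signal 21.6, next 280). It was 0.70 for Fst 1387843_at (141, next 433), 0.68 for Fstl3 1379440_at (813, next 1709) and 0.65 for Smad2 (1605, next 761), all 3 in vehicle 3. It was 0.68 for Smad3 1369528_at in vehicle 6 (255, next 32.2), a probe set that did not pass the filter.

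In 3 probe sets both GnRH arrays lay above both vehicle arrays in one set and below in another. The log2 differences in sets I and II were 0.21 and -3.18 for Inhbb, 0.30 and -0.39 for Fst 1372750_at, and -0.25 and 1.37 for Smad3 1389127_at. The set by agent F test gave unadjusted limma p-values of 0.0078, 0.655 and 0.236, and 0.834, 0.984 and 0.950 after adjustment over all probe sets.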

How the results depend on the processing

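Limits: background on 7 of 12 arrays was high enough to hide several members, and 2 arrays per agent and set leave wide intervals. Over 291 refits of the member differences (scaling, pseudocount, filter, covariates, arrays left out, single sets), 0 passed the threshold (smallest limma adjusted p = 0.648) and 32 changed sign. The 291 include refits that changed only the filter, the block or the intensity trend. Those leave each difference identical and could not turn a sign. The member count stayed at 0 in 27 of 28 alternatives and was 1, Inhbb, by the study's fold criterion. The pathway count stayed at 0 in all 28. The count over all probe sets, 1, was 0 under quantile normalization, a pseudocount of 1, the 60th percentile filter, no set term, no intensity trend and each set alone, 2 (Fosb and Arc) with array weights, and 0 to 1 with each array left out. Members called between sets numbered 1 (Inha) with array weights, where the share over all probe sets was not computed. Of the 104 baseline levels recomputed, 0 moved by more than 1 SD of the vehicle arrays. Most of them left out 1 vehicle array, which cannot move the mean that far. Others used the deposited values, which differ by a small scale factor. For those the count is no check of stability.

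Signs turned with array weights for Inha (-0.19), Inhba 1369012_at (-0.30) and 1383486_at (0.089), Fst 1372750_at (0.14), Smad2 (0.27) and Smad3 (-0.051), while Inhbb went from -1.02 to -0.26, Acvr2a from -0.79 to -0.19, Fst 1387843_at from 0.61 to 0.080 and Fstl3 from 0.48 to 0.30. Signs also turned with the spike-in covariate for Inhba 1369012_at (-0.0040). In set I alone they turned for Inha (-0.39), Inhba (-0.56 and 0.13), Inhbb (0.21), Fst (0.30 and -0.12), Acvr2a (0.11), Smad2 (0.44) and Smad3 (-0.25), in set II for Inhba 1369012_at (-0.10) and in set III for Acvr2b (0.34). Without vehicle 3 and vehicle 5, chosen after seeing the data, they turned for Inha (-0.043), Inhba (-0.19 and 0.52), Smad2 (0.12) and Smad3 (-0.015). Leaving out each array gave ranges of -0.064 to 0.49 for Inha, -0.12 to 0.48 and -0.68 to 0.22 for Inhba, -0.15 to 0.025 for Fst 1372750_at, -0.45 to 0.071 for Acvr2b and -0.29 to 0.11 for Smad2. The cause of these turns was not tested.

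Same-numbered vehicle and GnRH arrays correlated at -0.22 to 0.65 in their deviations from the group means, so the numbers were not taken as pairs. With the replicate block in place of the set, 0 probe sets were called. The member differences were the same because the balanced design fixes them under either block, so their sameness is no check.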
